A study of Saccharomyces cerevisiae and Kluyveromyces marxianus with 18 samples.

Results

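The TIR, DAN and CWP genes of Saccharomyces cerevisiae encode serine-rich mannoproteins of the cell wall, here followed through chemostat cultures that differed in oxygen and in anaerobic growth factors. The members were chosen by locus: every row of the deposited count tables whose S288C entry lists TIR1 (YER011W), TIR2 (YOR010C), TIR3 (YIL011W), TIR4 (YOR009W), DAN1 (YJR150C), DAN4 (YJR151C), CWP1 (YKL096W), CWP2 (YKL096W-A) or TIP1 (YBR067C). The rule itself uses the loci and no measured value. Of these 9 loci, 6 had a row among the 6171 genes of S. cerevisiae (TIR1, TIR2, TIR4, DAN4, CWP1 and TIP1), and 1 (CWP1) had a row among the 5330 genes of Kluyveromyces marxianus. TIR3, DAN1 and CWP2 had no row with their S288C entry in either table and were not analysed here by name. Whether a row without an S288C entry holds any of them was not tested.

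These proteins are made with a signal for a glycosylphosphatidylinositol (GPI) anchor, are heavily O-mannosylated in the secretory pathway, and are then linked to the glucan network of the wall. In S. cerevisiae the CWP proteins belong to the wall of aerobic cells, and the TIR and DAN proteins to the wall of anaerobic cells. Sterol synthesis needs oxygen, and the sterol-sensing activator Upc2 and the heme-dependent repressor Rox1 are both known to act on genes of the anaerobic wall.

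Poly(A) RNA was sequenced from steady-state chemostat cultures of wild-type S. cerevisiae CEN.PK113-7D, a laboratory strain, and wild-type K. marxianus CBS6556, a thermotolerant yeast. All cultures were grown in a synthetic medium with urea and the antifoam pluronic acid. The dilution rate was 0.1 per hour and the pH was 6. The unsupplemented cultures, in S. cerevisiae only, were anaerobic on 20 g per litre glucose with neither Tween 80, a source of unsaturated fatty acid, nor ergosterol. The T cultures were anaerobic on 20 g per litre glucose with 420 mg per litre Tween 80 and no ergosterol. The TE cultures were anaerobic on 20 g per litre glucose with 420 mg per litre Tween 80 and 10 mg per litre ergosterol. The oxygen-limited cultures had the glucose, Tween 80 and ergosterol of the TE cultures under micro-aerobic conditions. The aerobic cultures had 7.5 g per litre glucose, 10 mg per litre ergosterol and no Tween 80. Each of the 9 groups of species and condition had 2 libraries, which the series describes as biological replicates. Against the aerobic cultures, oxygen therefore cannot be told apart from glucose and Tween 80, whereas the TE and oxygen-limited cultures differ by oxygen alone in their labels.

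The libraries held 9116773 to 13112466 counted read pairs in S. cerevisiae and 6510449 to 10660870 in K. marxianus, except unsupplemented replicate 2 of S. cerevisiae, which held 2849618. That library stood apart: a single gene took 19.8% of its counts, and its TMM scaling factor was 0.371, against 0.972 to 1.21 in the other S. cerevisiae libraries. Counts scaled to library size with these factors (CPM, TMM-scaled) in this library are therefore raised relative to plain CPM. The typical variation between replicates, as edgeR's common biological coefficient of variation, was 32.1% in S. cerevisiae and 15.5% in K. marxianus. Because the fit of all 10 S. cerevisiae libraries shares 1 estimate of spread, each count of called members is also given from a fit without the 2 unsupplemented libraries. In bulk RNA, fewer cells expressing a gene and less RNA per cell cannot be told apart.

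In the authors' CEN.PK113-7D annotation, none of the 6 genes overlaps another gene. TIR1 (SCEN_E01010) lies on chromosome 5 from 176150 to 176914 on the plus strand. TIR4 (SCEN_O01810) and TIR2 (SCEN_O01820) are neighbours on chromosome 15, TIR4 from 344119 to 345579 on the plus strand and TIR2 from 345976 to 346731 on the minus strand, so that the pair converges with 396 bases between the genes. DAN4 (SCEN_J03720), the longest member at 3531 bases, lies on chromosome 10 from 707236 to 710766 on the minus strand. TIP1 (SCEN_B01790) lies on chromosome 2 from 361737 to 362369 on the minus strand, and CWP1 (SCEN_K01340) on chromosome 11 from 267456 to 268175 on the plus strand. The counts were made without regard to strand, and reads that mapped to several places were left out, so that values of these related, repeat-rich genes can be too low by an unknown share.

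TIR1, which encodes a wall mannoprotein known from cold-shocked and anaerobic cells, had the widest range of the 6 genes. It was measured at 6182 and 27546 CPM in the unsupplemented libraries, 4993 and 5175 CPM in T, 2428 and 2023 CPM in TE, 10.3 and 6.50 CPM in oxygen-limited and 4.37 and 4.20 CPM in aerobic libraries. Every anaerobic library was thus at or above 2023 CPM and every library grown with oxygen at or below 10.3 CPM, with no overlap between any neighbouring groups.

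TIR4, a wall mannoprotein needed for anaerobic growth, gave 5641 and 27201 CPM in unsupplemented, 7662 and 7454 CPM in T, 2022 and 1642 CPM in TE, 16.2 and 28.5 CPM in oxygen-limited and 20.6 and 19.0 CPM in aerobic libraries. The oxygen-limited and aerobic libraries overlapped, and the T libraries fell between the 2 unsupplemented ones. TIR2, its convergent neighbour and a cold-shock-induced relative, gave 420.1 and 4788 CPM in unsupplemented, 657.6 and 720.5 CPM in T, 235.8 and 220.9 CPM in TE, 14.9 and 16.6 CPM in oxygen-limited and 13.3 and 13.9 CPM in aerobic libraries. The order of its groups was that of TIR1, again with the T libraries between the unsupplemented replicates.

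DAN4, named for delayed anaerobic expression, followed a different course. It was measured at 572 and 993.6 CPM in unsupplemented, 2321 and 2349 CPM in T, 108 and 78.5 CPM in TE, 30.9 and 44.7 CPM in oxygen-limited and 37.4 and 45.4 CPM in aerobic libraries. The T libraries were its highest and no other group overlapped them, while the oxygen-limited and aerobic libraries overlapped.

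TIP1, a wall protein induced by cold and heat shock after which the TIR genes are named, was high with and without oxygen. Its values were 1091 and 7865 CPM in unsupplemented, 227 and 277 CPM in T, 1698 and 1756 CPM in TE, 372.5 and 705.2 CPM in oxygen-limited and 2072 and 2365 CPM in aerobic libraries. The T cultures were its lowest group and overlapped no other. CWP1, a major mannoprotein of the aerobic wall, gave 10.2 and 109.7 CPM in unsupplemented, 15.997 and 15.8 CPM in T, 22.3 and 26.4 CPM in TE, 31.1 and 40.1 CPM in oxygen-limited and 88.6 and 94.7 CPM in aerobic libraries. Outside the unsupplemented group, where its lowest and its highest library both lie, the CWP1 groups descended without overlap from aerobic to oxygen-limited to TE to T cultures.

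**Figure D1:**
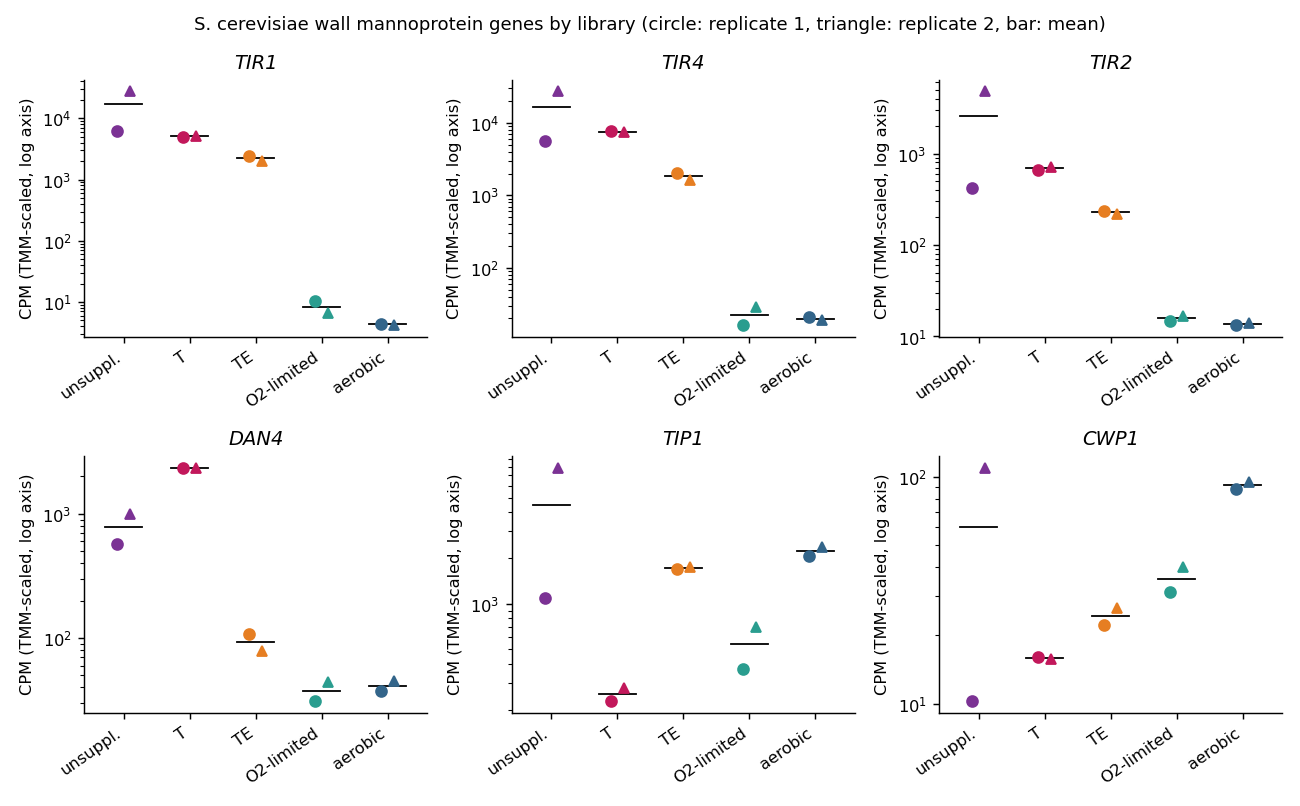
TMM-scaled CPM on a log axis for the 6 S. cerevisiae genes in each library, by condition. Circles are replicate 1, triangles replicate 2 and bars the group mean of 2 libraries. TIR1, TIR4 and TIR2 are high in the 3 anaerobic groups, DAN4 peaks in T, TIP1 is lowest in T, and the 2 unsupplemented replicates differ by 4.46-fold or more for every gene but DAN4.

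The spread between unsupplemented replicates was gene-dependent. Replicate 2 exceeded replicate 1 by 10.7-fold for CWP1, 11.4-fold for TIR2, 7.21-fold for TIP1, 4.82-fold for TIR4, 4.46-fold for TIR1 and 1.74-fold for DAN4. In the other 4 groups, replicates of these genes differed by at most 1.89-fold, the value of TIP1 in the oxygen-limited cultures. By plain CPM over the total count, unsupplemented replicates 1 and 2 had 6658 and 10225 for TIR1, 6075 and 10096 for TIR4 and 616.1 and 368.8 for DAN4. DAN4 was thus higher in replicate 2 by TMM-scaled CPM and lower by plain CPM.

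Divided by gene length, the levels show how the transcripts of the 6 genes were made up. TIR3, DAN1 and CWP2 are not in these sums, so the shares are not those of the whole family. Summed over the 6 genes, the level was 14397 and 73817 CPM per kilobase in unsupplemented, 13679 and 13945 in T, 7614 and 6893 in TE, 685 and 1232 in oxygen-limited and 3445 and 3917 in aerobic libraries. TIP1 made up 11.97% and 16.8% of that sum in unsupplemented, 2.62% and 3.14% in T, 35.2% and 40.3% in TE, 85.9% and 90.4% in oxygen-limited and 95.0% and 95.4% in aerobic libraries. TIR1, TIR2 and TIR4 together made up 86.8% and 82.6% in unsupplemented, 92.4% and 91.9% in T, 64.0% and 58.9% in TE, 6.47% and 4.05% in oxygen-limited and 1.09% and 0.94% in aerobic libraries. TIP1 thus led in the oxygen-limited cultures as in the aerobic ones, at a lower total, and the TIR genes led in the anaerobic cultures.

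**Figure D2:**
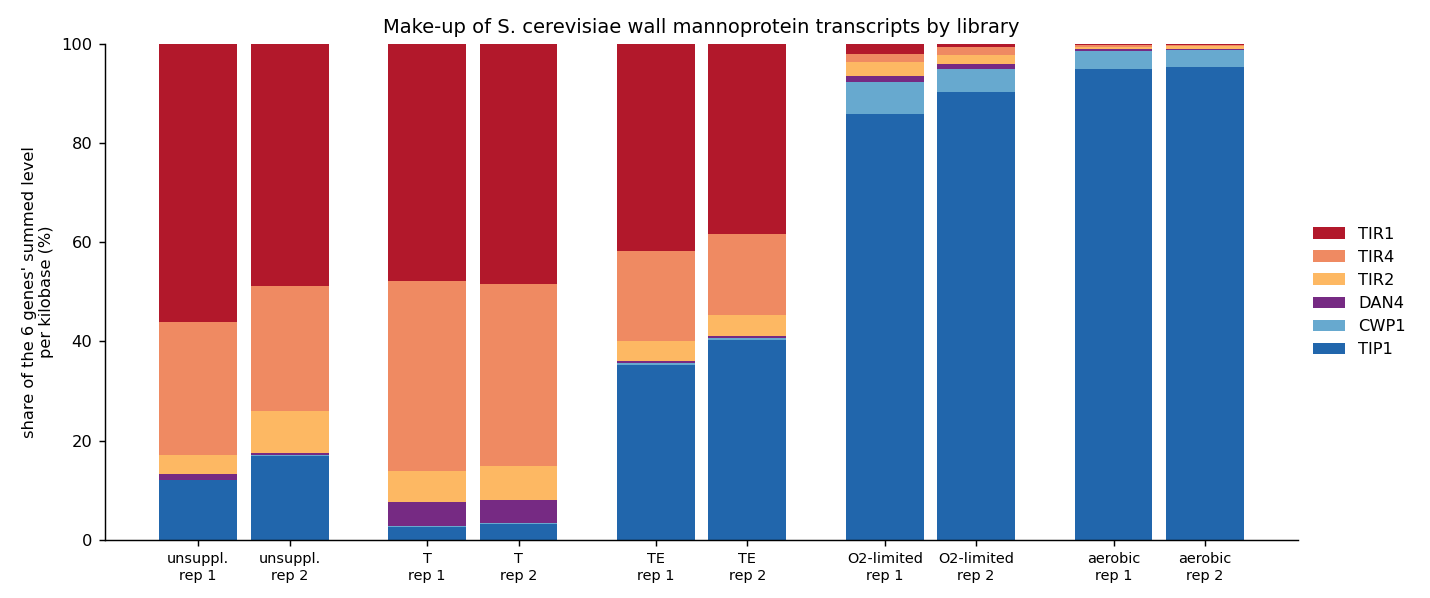
Share of each gene in the summed level per kilobase (%) of the 6 S. cerevisiae genes, 1 bar per library. TIP1 makes up 85.9% or more of the sum in all 4 libraries grown with oxygen and 2.62% and 3.14% in the T libraries, where TIR1 and TIR4 take most of it.

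Per kilobase, the order of the genes in the T libraries was TIR1, TIR4, TIR2, DAN4, TIP1 and CWP1, with group means of 6645 ± 169, 5173 ± 101, 911 ± 58.9, 661 ± 5.46, 398 ± 56.0 and 22.1 ± 0.203 CPM per kilobase (SD, n = 2). In the TE libraries TIR1 averaged 2909 ± 375 and TIP1 2728 ± 65.0 CPM per kilobase (SD, n = 2), a pair that did not differ beyond its spread. TIR4 stood at 7.98 and 7.67 times DAN4 per kilobase in the T libraries and at 45.1 and 50.6 times in the TE libraries, so that the make-up of the anaerobic genes differed with ergosterol supply. The ratio of TIR1 to TIR4 per kilobase was 1.24 and 1.33 in T and 2.29 and 2.35 in TE libraries.

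The first comparison sets oxygen limitation against full aeration. In S. cerevisiae none of the 6 genes passed the threshold of an adjusted p under 0.05 (edgeR's quasi-likelihood test, Benjamini-Hochberg over the 5868 genes tested), where 14.1% of all genes did (7.98% higher and 6.12% lower). TIP1 came nearest, with 539 ± 235 CPM in oxygen-limited and 2219 ± 207 CPM in aerobic cultures (SD, n = 2), a log2 fold change (log2FC) of -2.04 ± 0.80 (SE, adjusted p = 0.137). CWP1 had a log2FC of -1.36 ± 0.82 (SE, adjusted p = 0.324) and TIR1 one of 0.97 ± 0.69 (SE, adjusted p = 0.405). TIR4, TIR2 and DAN4 had log2FCs of 0.17, 0.21 and -0.13. At an unadjusted p under 0.05 the count was 1, and DESeq2 called 1 gene, TIP1 in both cases. The share of all genes is not given for either count. Without the unsupplemented libraries 3 genes were called, where 62.0% of all genes were (31.2% higher and 30.8% lower): TIP1 lower (adjusted p = 0.000728), CWP1 lower (adjusted p = 0.000152) and TIR1 higher (adjusted p = 0.0156). The authors' deposited table, based on likelihood ratios, gives TIP1 an adjusted p of 0.0448 for this comparison. In later comparisons the authors' adjusted p also fell under 0.05 for members that the fit of all libraries did not call. It was 0.0271 for DAN4 in TE against aerobic cultures. In TE against oxygen-limited cultures it was 0.00129 for TIR2 and 0.0277 for DAN4. In T against TE it was 0.00875 for TIP1 and 0.0286 for TIR4. For TIR1 it was 0.0324 in unsupplemented against T.

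In anaerobic cultures with both supplements, the TIR genes of S. cerevisiae were far above their aerobic levels. TIR1 was 518-fold higher in TE than in aerobic cultures (2225 ± 287 and 4.29 ± 0.122 CPM, SD, n = 2; log2FC 9.02 ± 0.93, SE, adjusted p = 0.00127). TIR4 was 92.3-fold higher (1832 ± 269 and 19.8 ± 1.12 CPM; log2FC 6.53 ± 0.88, SE, adjusted p = 0.00400), and TIR2 was 16.8-fold higher (228 ± 10.6 and 13.6 ± 0.390 CPM; log2FC 4.07 ± 0.96, SE, adjusted p = 0.0327). These 3 of the 6 genes passed the test and all were higher, in a comparison where 13.1% of all genes were called, 6.15% higher and 6.95% lower. DAN4 had a log2FC of 1.17 ± 0.36 (SE, adjusted p = 0.0758), CWP1 one of -1.91 ± 0.84 (SE, adjusted p = 0.188) and TIP1 one of -0.36 (adjusted p = 0.831). The median over the 6 genes was 2.62, beside -0.01 over all genes tested. Without the unsupplemented libraries DAN4 was also called higher (adjusted p = 0.00263) and CWP1 lower (adjusted p = 3.53e-05), where 58.2% of all genes were called (31.2% higher and 27.1% lower). Without either aerobic library TIR1 alone was called, and without any 1 of the oxygen-limited, T or TE libraries TIR1 and TIR4 were.

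Against the oxygen-limited cultures, which had the same glucose, Tween 80 and ergosterol, the TE cultures again had more TIR1 and TIR4. TIR1 was 265-fold higher in TE than in oxygen-limited cultures (2225 ± 287 and 8.40 ± 2.69 CPM, SD, n = 2; log2FC 8.05 ± 0.90, SE, adjusted p = 0.00806) and TIR4 81.8-fold higher (1832 ± 269 and 22.4 ± 8.65 CPM; log2FC 6.35 ± 0.88, SE, adjusted p = 0.0160). These were 2 of the 6 genes, where 2.11% of all genes were called, 0.835% higher and 1.28% lower. TIR2 had a log2FC of 3.86 ± 0.96 (SE, adjusted p = 0.0885), TIP1 one of 1.68 (adjusted p = 0.385), DAN4 one of 1.305 ± 0.36 (SE, adjusted p = 0.119) and CWP1 one of -0.55 (adjusted p = 0.870). Without the unsupplemented libraries all 6 were called, 5 higher and CWP1 lower, where 38.8% of all genes were called (19.1% higher and 19.7% lower). Conversely, no member was called without oxygen-limited replicate 2 or without either TE library, and TIR1 alone without any 1 of the other aerobic, oxygen-limited or T libraries. The median over the 6 genes was 2.77, beside -0.01 over all genes tested. The TE libraries are shared by this comparison and the one against aerobic cultures.

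**Figure D3:**
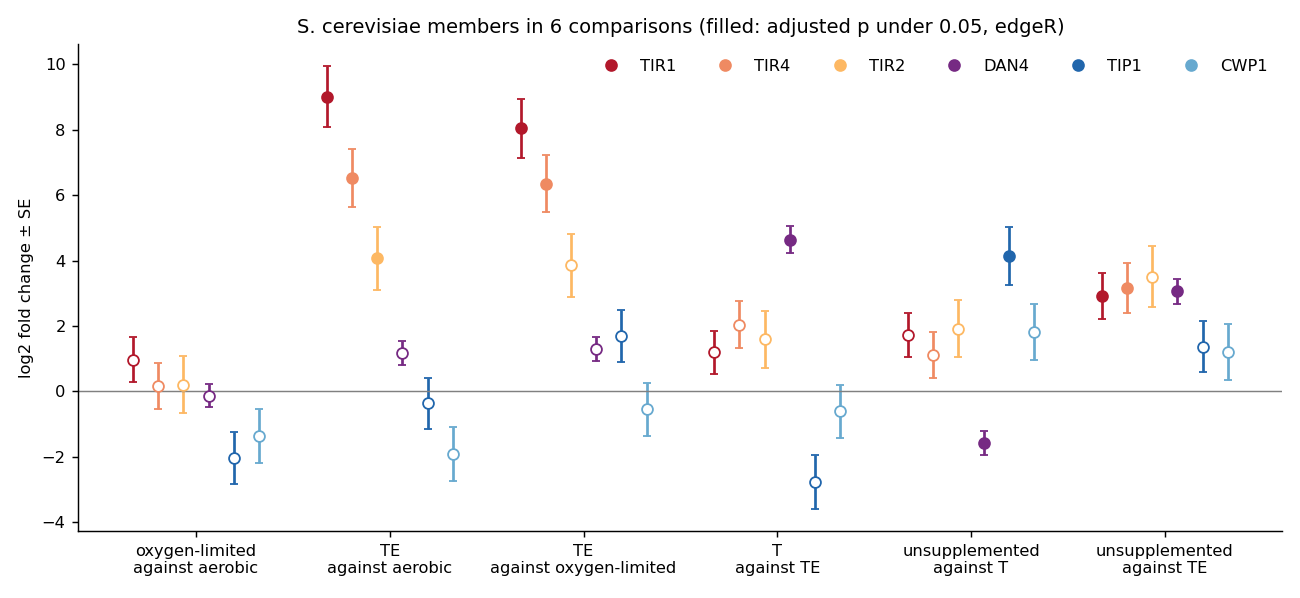
Log2 fold change (log2FC) ± SE of the 6 S. cerevisiae genes in 6 comparisons, from the fit of all 10 libraries. Filled points have an adjusted p under 0.05 by edgeR's quasi-likelihood test. TIR1 and TIR4 lead both comparisons of TE cultures, DAN4 leads T against TE, and DAN4 and TIP1 are the called genes in unsupplemented against T.

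Of the anaerobic cultures with Tween 80, those without ergosterol had far more DAN4. It averaged 2335 ± 19.3 CPM in T and 93.4 ± 21.1 CPM in TE cultures (SD, n = 2), a 25.0-fold difference with a log2FC of 4.64 ± 0.41 (SE, adjusted p = 0.00319). DAN4 was the 1 member of 6 called, where 5.04% of all genes were called, 1.72% higher and 3.32% lower. The log2FCs of TIR4, TIR2 and TIR1 were 2.04 ± 0.72, 1.59 ± 0.87 and 1.19 ± 0.66 (SE, adjusted p = 0.154, 0.359 and 0.371). TIP1 had a log2FC of -2.78 ± 0.83 (SE, adjusted p = 0.105), with 252 ± 35.5 CPM in T and 1727 ± 41.1 CPM in TE cultures, and CWP1 one of -0.61 (adjusted p = 0.771). Without the unsupplemented libraries all 6 were called, with DAN4, TIR4, TIR2 and TIR1 higher and TIP1 and CWP1 lower, where 50.2% of all genes were called (23.4% higher and 26.8% lower). Without TE replicate 2 none was called, with DAN4 at a log2FC of 4.51.

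Cultures without Tween 80 as well were the group whose replicates differed most, for each of the 6 genes. Against T cultures, TIP1 was 17.8-fold higher in unsupplemented cultures (4478 ± 4790 and 252 ± 35.5 CPM, SD, n = 2; log2FC 4.15 ± 0.88, SE, adjusted p = 0.0323) and DAN4 was lower (783 ± 298 and 2335 ± 19.3 CPM; log2FC -1.58 ± 0.36, SE, adjusted p = 0.0386). Of the 6 genes 1 was thus called higher and 1 lower, where 11.3% of all genes were called, 8.37% higher and 2.95% lower. The other 4 genes had log2FCs between 1.12 and 1.92 and adjusted p between 0.109 and 0.265. Leaving out 1 library at a time gave log2FCs from 2.02 to 4.96 for TIP1 and from -2.12 to -1.24 for DAN4. Neither of these calls held in most of the fits. Without unsupplemented replicate 2, TIP1 (log2FC 2.02) and DAN4 (-2.12) kept their direction. TIR2 (-0.81), CWP1 (-0.73) and TIR4 (-0.52) were then lower in the remaining unsupplemented library. Such fits assume that the lone library varies like the other groups.

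Against TE cultures, unsupplemented cultures had more DAN4 (8.37-fold; 783 ± 298 and 93.4 ± 21.1 CPM, SD, n = 2; log2FC 3.07 ± 0.38, SE, adjusted p = 0.00543). TIR4 was 8.96-fold higher (log2FC 3.16 ± 0.75, SE, adjusted p = 0.0438) and TIR1 7.58-fold higher (log2FC 2.92 ± 0.71, SE, adjusted p = 0.0461). These were 3 of the 6 genes, where 8.67% of all genes were called, 6.10% higher and 2.57% lower. TIR2 had a log2FC of 3.51 ± 0.94 (SE, adjusted p = 0.0592), TIP1 one of 1.37 (adjusted p = 0.251) and CWP1 one of 1.1997 (adjusted p = 0.338). Without unsupplemented replicate 2 the log2FCs were 2.54 for DAN4, 1.55 for TIR4, 1.40 for TIR1 and 0.80 for TIR2. In that fit CWP1 had a log2FC of -1.32 and TIP1 one of -0.74. Over all fits that each left out 1 library, the highest log2FCs were 3.40 for DAN4, 3.89 for TIR4, 3.62 for TIR1 and 4.38 for TIR2. The calls of TIR4 and TIR1 did not hold in most of these fits, and that of DAN4 not in all.

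CWP1 allowed a comparison between the species. The K. marxianus row assigned to CWP1 (KM6556v0_E002120, chromosome 5, from 445434 to 448437 on the plus strand of the CBS6556 annotation) spans 3004 bases, against 720 in S. cerevisiae, so its place within the family is uncertain. It was measured at 812.5 and 953.6 CPM in T, 717 and 721 CPM in TE, 409.8 and 420.1 CPM in oxygen-limited and 1412 and 1438 CPM in aerobic cultures. The aerobic libraries were highest and the oxygen-limited libraries lowest, and no groups overlapped. It was 3.43-fold lower in oxygen-limited than in aerobic cultures (log2FC -1.78 ± 0.13, SE, adjusted p = 5.62e-05), where 47.0% of the 5143 K. marxianus genes tested were called, 22.0% higher and 25.0% lower. In TE cultures it was 1.98-fold lower than in aerobic cultures (log2FC -0.99 ± 0.13, SE, adjusted p = 0.000603), where 56.5% of genes were called, 27.9% higher and 28.6% lower, and 1.73-fold higher than in oxygen-limited cultures (log2FC 0.79 ± 0.13, SE, adjusted p = 0.00215), where 52.0% were called, 25.7% higher and 26.3% lower. T against TE gave a log2FC of 0.30 ± 0.13 (SE, adjusted p = 0.107), where 37.3% of genes were called, 18.9% higher and 18.4% lower.

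**Figure D4:**
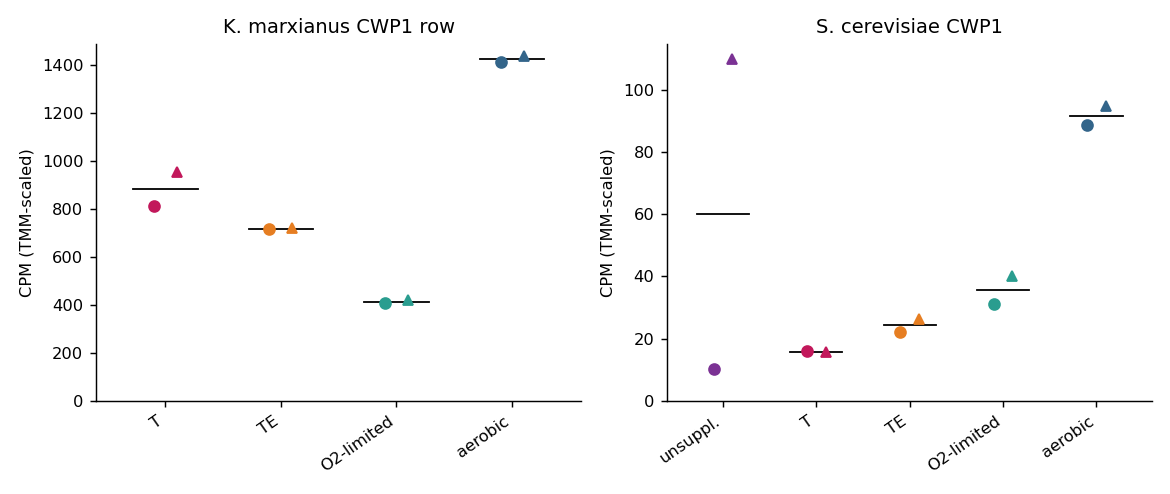
TMM-scaled CPM on linear axes from 0 of the row assigned to CWP1 in K. marxianus (left) and of CWP1 in S. cerevisiae (right). Circles are replicate 1, triangles replicate 2 and bars the mean of 2 libraries. Both genes are high in aerobic cultures, and T and TE lie above oxygen-limited in K. marxianus but below it in S. cerevisiae.

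The difference of the responses, K. marxianus minus S. cerevisiae on the log2 scale, was tested by edgeR over 3885 genes matched 1 to 1. This fit used 16 libraries and left out the unsupplemented ones of S. cerevisiae. For oxygen-limited against aerobic cultures it was -0.43 ± 0.21 (SE, adjusted p = 0.0956), where 56.4% of matched genes differed. For TE against aerobic cultures it was 0.88 ± 0.21 (SE, adjusted p = 0.00463; 44.6% of matched genes called), for TE against oxygen-limited 1.31 ± 0.21 (SE, adjusted p = 0.000393; 46.4%) and for T against TE 0.90 ± 0.21 (SE, adjusted p = 0.00391; 50.5%). In these 3 comparisons the K. marxianus response was the more positive one. With about every other matched gene differing in each comparison, such a difference was common.

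Of 7 regulators of the anaerobic mannoprotein genes, 1 was called higher and 1 lower in oxygen-limited against aerobic cultures, 2 and 1 in TE against aerobic, 1 and 0 in T against TE, 1 and 0 in TE against oxygen-limited, 1 and 1 in unsupplemented against T and 2 and 1 in unsupplemented against TE cultures. The counts without the unsupplemented libraries were 1 higher and 5 lower in oxygen-limited against aerobic, 2 and 2 in TE against aerobic, 5 and 0 in TE against oxygen-limited and 3 and 1 in T against TE cultures. For this and the following lists of S. cerevisiae, the share of all genes called in these 4 comparisons was 14.1%, 13.1%, 2.11% and 5.04% in the fit of all libraries. Without the unsupplemented libraries it was 62.0%, 58.2%, 38.8% and 50.2%. For unsupplemented cultures the share was 11.3% against T and 8.67% against TE. These shares are for edgeR's adjusted p. Counts at an unadjusted p or by DESeq2 have no such share beside them. UPC2, the sterol-sensing activator, had 269 and 284 CPM in unsupplemented, 391.2 and 390.9 CPM in T, 111 and 96.7 CPM in TE, 9.75 and 15.1 CPM in oxygen-limited and 23.2 and 21.1 CPM in aerobic libraries. It was higher in TE cultures than in the aerobic ones (log2FC 2.23 ± 0.26, SE, adjusted p = 0.00198) and than in oxygen-limited cultures (3.06 ± 0.27, adjusted p = 0.00581), and higher in T than in TE cultures (1.91 ± 0.25, adjusted p = 0.0114). ROX1, the repressor of hypoxic genes, averaged 12.9 ± 3.49 CPM in unsupplemented, 31.7 ± 2.59 in T, 16.1 ± 1.66 in TE, 7.54 ± 1.63 in oxygen-limited and 131 ± 3.30 in aerobic cultures (SD, n = 2). ROX1 was thus low in the oxygen-limited cultures (log2FC against aerobic -4.12, adjusted p = 0.000455), where TIR1, TIR4, TIR2 and DAN4 were also low. SUT1, a transcription factor of sterol uptake, was higher in both oxygen-limited (2.66, adjusted p = 0.00125) and TE cultures (3.22, adjusted p = 0.000466) than in aerobic cultures. Whether these regulators had a part in the levels of the mannoprotein genes was not tested.

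**Figure D5:**
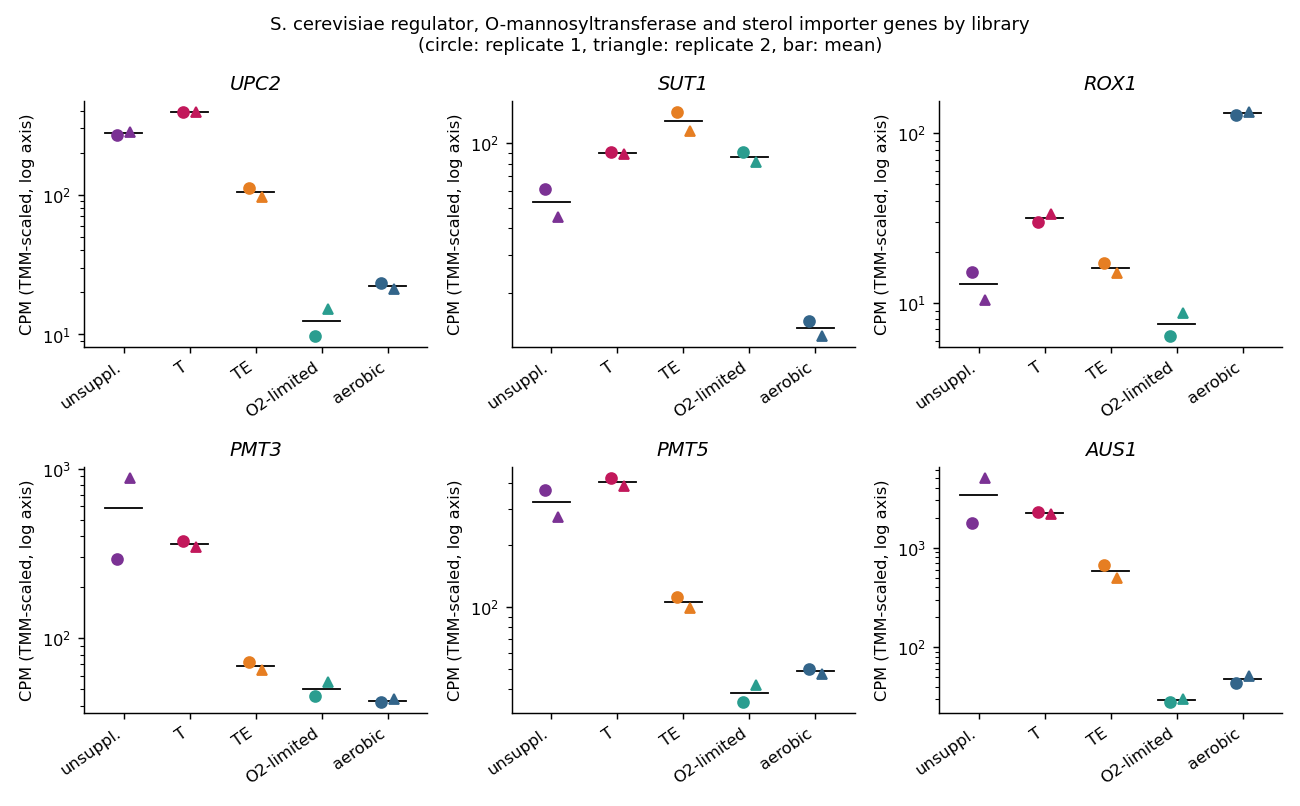
TMM-scaled CPM on a log axis for UPC2, SUT1, ROX1, PMT3, PMT5 and AUS1 in each S. cerevisiae library. Circles are replicate 1, triangles replicate 2 and bars the mean of 2 libraries. UPC2, PMT5 and AUS1 lie higher in TE than in the libraries grown with oxygen and higher still in T, whereas ROX1 is low in oxygen-limited and all anaerobic libraries.

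Of 6 protein O-mannosyltransferase genes of S. cerevisiae, PMT5 rose in TE against aerobic (log2FC 1.11, adjusted p = 0.0214) and against oxygen-limited cultures (1.46, adjusted p = 0.0280). In T against TE cultures PMT5 (1.93, adjusted p = 0.00986) and PMT3 (2.39, adjusted p = 0.0358) were called higher, and both were so in unsupplemented against TE cultures. Unsupplemented replicates 1 and 2 had 293 and 883 CPM of PMT3 and 370 and 274 CPM of PMT5. PMT3 averaged 361 ± 21.2 CPM in T and 68.6 ± 5.59 CPM in TE cultures (SD, n = 2). Without the unsupplemented libraries all 6 were called higher in T against TE, where 23.4% of all genes were. In that fit 1 was higher and 2 lower in oxygen-limited against aerobic, 4 and 1 in TE against aerobic and 2 and 0 in TE against oxygen-limited cultures. Of the 5 genes of the GPI transamidase, which attaches the anchor, edgeR called 0 in each of the 6 S. cerevisiae comparisons. At an unadjusted p under 0.05 there were 3 in each comparison of unsupplemented cultures and 0 in the others, and DESeq2 called 2 against T, 3 against TE and 0 in the other comparisons. In the fit without the unsupplemented libraries edgeR called 3 lower in oxygen-limited against aerobic, 3 lower in TE against aerobic, 1 lower in TE against oxygen-limited and 3 higher in T against TE cultures.

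Of 12 other covalently bound wall proteins of S. cerevisiae, 2 were called higher in oxygen-limited against aerobic, 1 higher in TE against aerobic and 1 lower in TE against oxygen-limited cultures. In T against TE edgeR called 0, with 4 at an unadjusted p under 0.05 and 3 by DESeq2. With the unsupplemented libraries left out, 6 were higher and 1 lower in oxygen-limited against aerobic, 4 and 1 in TE against aerobic, 2 and 3 in TE against oxygen-limited and 7 and 2 in T against TE cultures. FIT3, a wall protein of iron uptake, was higher in oxygen-limited cultures (912 ± 225 CPM) than in aerobic cultures (21.5 ± 0.580 CPM, SD, n = 2; log2FC 5.41, adjusted p = 0.00765), and lower in TE than in oxygen-limited cultures (-4.87, adjusted p = 0.0324). SRL1 was higher in oxygen-limited (1.65, adjusted p = 0.0262) and TE cultures (1.84, adjusted p = 0.0197) than in aerobic cultures. PST1 was called higher in unsupplemented cultures against both T (1.49, adjusted p = 0.0492) and TE (3.07, adjusted p = 0.00684), together with SPI1 (3.56, adjusted p = 0.0275) against T and with PIR3 (2.72, adjusted p = 0.0150) and CIS3 (2.49, adjusted p = 0.0327) against TE. Unsupplemented replicates 1 and 2 had 849 and 1478 CPM of PST1. How far these calls rest on replicate 2 was not tested. Of 19 glucan and chitin genes, UTR2, a chitin transglycosylase, rose in TE against aerobic cultures (2.001, adjusted p = 0.00417). KNH1, a relative of the glucan synthesis gene KRE9, fell (-2.27, adjusted p = 0.0100), with SKN1 and DFG5 also lower. In oxygen-limited against aerobic cultures UTR2 was likewise higher (1.43, adjusted p = 0.0150). Lower there were KNH1 (-1.63, adjusted p = 0.0300), DFG5 (-1.05, adjusted p = 0.0323) and CHS1 (-1.06, adjusted p = 0.0468). In TE against oxygen-limited cultures 0 of the 19 were called. CRH1, another transglycosylase (1.79, adjusted p = 0.0190), and DFG5 (1.23, adjusted p = 0.0398) were the 2 called in T against TE cultures, both higher. In the fit without the unsupplemented group 15 of the 19 were called higher there, beside 3 higher and 10 lower in oxygen-limited against aerobic, 3 and 9 in TE against aerobic and 5 and 1 in TE against oxygen-limited cultures. Of 5 flocculins and agglutinins, AGA2 was called, higher in oxygen-limited (0.89, adjusted p = 0.0358) and TE cultures (0.81, adjusted p = 0.0485) than in aerobic cultures. When the unsupplemented libraries were left out, 1 was called higher and 1 lower in oxygen-limited against aerobic and 1 higher and 3 lower in TE against aerobic, with 1 lower in TE against oxygen-limited and 1 higher in T against TE cultures.

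In K. marxianus, the row assigned to UPC2 had 138 and 197 CPM in T, 196 and 192 CPM in TE, 270.0 and 273 CPM in oxygen-limited and 44.3 and 48.8 CPM in aerobic cultures. It was higher in oxygen-limited than in aerobic cultures (log2FC 2.54, adjusted p = 4.70e-05), the step at which its S. cerevisiae counterpart had -0.83 (adjusted p = 0.0687). Of 16 glucan and chitin rows, 1 rose and 7 fell in oxygen-limited against aerobic cultures. In that comparison 47.0% of all K. marxianus genes tested were called, 22.0% higher and 25.0% lower. Among the rows that fell were KRE9 (-1.78, adjusted p = 0.00915), CHS1 (-1.11, adjusted p = 0.00796), GAS1 (-1.06, adjusted p = 0.0394) and GAS3 (-1.06, adjusted p = 0.000581). The row assigned to CWP1 fell in the same comparison, beside PIR1 (-1.11, adjusted p = 0.00432), 1 of 2 other wall protein rows. Of 4 O-mannosyltransferase rows 1 was called there, PMT6 (-0.51, adjusted p = 0.0281), and of 5 GPI transamidase rows edgeR called 0, with 0 at an unadjusted p under 0.05 and 0 by DESeq2.

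The chromosomal neighbours of the members were examined as well. AUS1, an importer of sterol, stands next to TIR2 with a gap of 2728 bases and diverges from it. AUS1 averaged 3413 ± 2323 CPM in unsupplemented, 2246 ± 53.2 in T, 590 ± 125 in TE, 29.3 ± 1.2996 in oxygen-limited and 48.0 ± 5.67 in aerobic cultures (SD, n = 2), and it was higher in TE cultures than in aerobic (log2FC 3.62, adjusted p = 0.00488) and oxygen-limited cultures (4.33, adjusted p = 0.0102). TIR4, TIR2 and AUS1 thus form a run of 3 adjacent genes with higher values in anaerobic cultures. On the other side of the run, SLG1, a sensor of wall stress, was called by edgeR in none of the 6 comparisons. Neither were the named neighbours of TIR1, TIP1 and CWP1 or DAL5 beside DAN4. Nearest to the threshold was YJU2 beside CWP1 (-1.17, adjusted p = 0.0559, unsupplemented against T). The left neighbour of DAN4, SCEN_J03710, was called higher in TE than in aerobic (9.97, adjusted p = 0.000505) and oxygen-limited cultures (10.57, adjusted p = 0.00506). For neighbours only the fit of all libraries is given.

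By the distance between centred group means on the log2 CPM scale over the 5 groups, the genes most like TIR1 among 5652 were SCEN_J03710 (root mean square difference 0.84), ANB1 (0.86), SCEN_I01680 (0.98), HUG1 (1.40) and HES1 (2.01). SCEN_J03710, the left neighbour of DAN4, and SCEN_I01680 have no S288C entry and so carry no gene name here. Whether either of them is TIR3, DAN1 or CWP2, the members without a row, was not tested. SCEN_J03710 had 1861 and 1544 CPM in TE, 1.12 and 1.099 CPM in oxygen-limited and 1.75 and 1.63 CPM in aerobic libraries. ANB1, an anaerobic form of translation factor eIF5A, averaged 1578 ± 1050 CPM in unsupplemented, 424 ± 17.4 in T, 663 ± 24.3 in TE, 3.44 ± 2.89 in oxygen-limited and 0.36 ± 0.32 in aerobic cultures (SD, n = 2). ANB1 was thus lower in T than in TE cultures on average, whereas TIR1 averaged higher in T.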

How the data were processed

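For each species the authors deposited 1 table of raw counts, in read pairs assigned to each gene. Per the file headers they were made with featureCounts 1.6.0 without a strand option, leaving out reads that mapped to several places or overlapped several genes. The submitters' processing notes also name Bowtie 1.2.1.1, SAMtools 1.3.1 and edgeR 3.28.1. The authors' deposited tables of comparisons list log2 fold changes and log2 mean CPM, likelihood ratios (a score), and p-values with and without adjustment. Through their S288C column, 5422 S. cerevisiae and 3979 K. marxianus genes had an entry. These tables supplied those entries and the values credited to them.

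Counts were analysed here with R 4.3.3 and edgeR 4.0.16: filterByExpr, TMM scaling and 1 quasi-likelihood fit of group means per species, with all genes tested and adjusted p under 0.05 (Benjamini-Hochberg) called. Residual degrees of freedom were 5 in S. cerevisiae and 4 in K. marxianus. The SE is the absolute log2 fold change over the square root of F. Every member was tested. On simulated counts of TE against aerobic cultures the fit called 11% of genes changed by a log2 fold of 1 and 84% of those changed by 2 in S. cerevisiae (5857 genes), against 92% and 100% in K. marxianus (5136 genes). With 2 libraries a group an exact permutation test cannot reach the threshold and was left out. Alternatives were DESeq2 1.42.0, RLE scaling, no filter, groups fitted alone, a replicate block, fits without libraries and, added after seeing the data, scaling by total counts.

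The members and gene lists were chosen with earlier results of these data known. List genes were named where called, at most 4 per list and comparison by absolute log2 fold change. The 5 genes most alike in pattern, with at least 10 CPM in 1 group and a prior count of 2, were named for TIR1. The same was planned for CWP2, which has no row, and was done for TIR4 and DAN4 after their values were seen. Neighbouring genes, and UPC2 and AUS1 by library, were described after their values were seen.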

Additional observations from a re-analysis of the deposited data

Results flagged for a closer look

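The response of CWP1 differed between the species in 3 comparisons by the edgeR quasi-likelihood test of the difference itself. K. marxianus minus S. cerevisiae, on the log2 scale, it was 0.88 for TE against aerobic cultures, 1.31 for TE against oxygen-limited cultures and 0.90 for T against TE cultures. In TE against oxygen-limited cultures the row assigned to CWP1 rose in K. marxianus (log2FC 0.79). CWP1 of S. cerevisiae had -0.55 in the fit of all libraries, where it was not called. It was called lower without the unsupplemented libraries, which the test of the difference also leaves out. The K. marxianus row is 3004 bases long and the S. cerevisiae gene 720.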

How the results depend on the processing

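The S. cerevisiae counts depended on the 2 unsupplemented libraries. Over the 10 fits that each left out 1 library, the members called ranged from 0 to 3 in oxygen-limited against aerobic, 1 to 5 in TE against aerobic and 0 to 6 in the other 4 comparisons, with the highest count without an unsupplemented library in each. In K. marxianus T against TE ranged from 0 to 1 and the other comparisons stayed at 1. The species difference of oxygen-limited against aerobic ranged from 0 to 1 and its other comparisons stayed at 1. Without the unsupplemented group the counts were 3 for oxygen-limited against aerobic, 5 for TE against aerobic, 6 for TE against oxygen-limited and 6 for T against TE. Of all genes, 62.0%, 58.2%, 38.8% and 50.2% were called in that fit. Groups fitted alone gave 3, 6, 5 and 6 for these and 0 for both comparisons of unsupplemented cultures. DESeq2 gave 1 for oxygen-limited against aerobic, 4 for TE against oxygen-limited, 3 for T against TE and 1 for T against TE of K. marxianus. For groups fitted alone and for DESeq2 the share of all genes called is not given here, so these counts have no background beside them. RLE scaling gave 1 for unsupplemented against T, and scaling by total counts 1 for oxygen-limited against aerobic. Over all genes, oxygen-limited against aerobic had 3628 calls without the unsupplemented group and 827 with it.

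Scaling by total counts moved the median log2 fold change of all genes to -0.25 in oxygen-limited against aerobic, -0.13 in TE against aerobic, -0.50 in unsupplemented against T, -0.58 in unsupplemented against TE and -0.18 in T against TE of K. marxianus. Relative to the direction given in the report it reversed TIR4 (-0.0221) and TIR2 (-0.00538) in oxygen-limited against aerobic, TIR4 (-0.10) in unsupplemented against T and CWP1 (-0.0747) in unsupplemented against TE. Leaving out 1 library gave ranges whose negative ends came without unsupplemented replicate 2 and highest ends without replicate 1: -0.73 to 2.78 for CWP1, -0.52 to 1.84 for TIR4 and -0.81 to 2.79 for TIR2 against T, and -0.74 to 2.18 for TIP1 and -1.32 to 2.17 for CWP1 against TE. In oxygen-limited against aerobic DAN4 ranged from -0.42 to 0.11, reversing without aerobic replicate 2 (0.013) or oxygen-limited replicate 1, and TIR4 from -0.29, without oxygen-limited replicate 2, to 0.52. Of 663 values of single members under the alternatives, 508 kept direction and side of the threshold, 77 passed it newly, 66 no longer passed it and 12 reversed; for these the cause was not tested.

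Titles share a stem between libraries of unsupplemented and TE cultures of S. cerevisiae and of T and TE cultures of K. marxianus, but no label calls them pairs. With the stem as a replicate block, in a fit of the compared groups alone, 0 members were called in either comparison. For unsupplemented against TE the same groups fitted alone without the block also gave 0. The fits of all libraries gave 3 and 0. The deviations of same-stem libraries had r = -0.0763 over 5868 genes and 0.186 over 5143 genes.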

Other observations

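By the same distance over the 5 groups, computed for TIR4 and DAN4 after their values were seen, the genes most like TIR4 were SCEN_I01680 (0.27), HUG1 (0.82), HES1 (1.1), HEM13 (1.17) and ANB1 (1.3). Those most like DAN4 were YPR145C-A (0.43), SCEN_M04590 (0.72), SET4 (0.79), UPC2 (0.90) and SCEN_D02140 (0.92). The distance uses the mean of the unsupplemented libraries, which differed widely for some of these genes. Replicates 1 and 2 had 1063 and 66.2 CPM of YPR145C-A, 864 and 130 of SET4 and 21.8 and 65.2 of SCEN_D02140. They had 269 and 284 CPM of UPC2, 340 and 328 of SCEN_M04590 and 572 and 993.6 of DAN4. SCEN_M04590, which has no S288C entry, averaged 334 ± 8.51 CPM in unsupplemented, 827 ± 1.14 in T, 36.5 ± 1.74 in TE, 42.6 ± 4.70 in oxygen-limited and 42.6 ± 1.38 in aerobic cultures (SD, n = 2). Like DAN4, it was called higher in T than in TE cultures (log2 fold change 4.50, adjusted p = 0.000547 by edgeR) and lower in unsupplemented than in T cultures (-1.31, adjusted p = 0.0174).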
